A study of Mus musculus with 12 samples.

Results

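Translation initiation factors were examined as the genes whose symbols begin with Eif followed by a digit from 1 to 6, without the 4E-binding proteins, the eIF4E transporter Eif4enif1 and the oocyte cap-binding protein Eif4e1b, which regulate initiation or act outside the canonical factors. This gave 50 of the 24562 genes in the count table. RNA was sequenced from 12 pools of 18 to 45 CD-1 oocytes, 3 pools in each of 4 cohorts: mice of PND 13 (PND, postnatal day), mice of PND 16 divided by body weight into small and large, and mice of PND 40. The oocytes came from antral follicles of ovaries that had received no gonadotropins, were stripped of cumulus cells and still had an intact germinal vesicle. Following the grouping of the study, PND 16 large and PND 40 are called competent, and PND 13 and PND 16 small non-competent. Competence in the study means that an oocyte resumes meiosis and also reaches metaphase of meiosis II. It was assigned by cohort and was not scored in the sequenced oocytes. For the PND 16 weight groups, the study scored it in few mice, in data not shown. All groups were untreated CD-1 females, and each pool mixed oocytes, so fewer oocytes carrying a transcript and less of it per oocyte cannot be told apart.

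Initiation places a ribosome on an mRNA. The eIF4F complex (the cap-binding protein eIF4E, the scaffold eIF4G and the helicase eIF4A) binds the capped end, eIF2 brings the initiator tRNA to the small ribosomal subunit, eIF3 links that subunit to eIF4G, and eIF1, eIF1A, eIF5 and eIF5B select the start codon and join the subunits. The eIF2B complex reloads eIF2 with GTP, and kinases that phosphorylate the alpha subunit of eIF2 block that step under stress. In growing oocytes, transcripts are made and stored ahead of the transcriptional silence that comes before meiosis resumes, and later stages rely on regulated translation of stored mRNAs.

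Total counts were 17671193 to 27418358 per pool, and the members together held 0.530% to 0.557% of them. Levels are given as CPM, counts relative to the library total scaled between pools by TMM, as mean ± SD over n = 3 pools, and levels of different genes are compared only as CPM per kb of exon. A gene rose or fell where edgeR's quasi-likelihood test gave a Benjamini-Hochberg adjusted p of at most 0.05 over the 13943 genes tested, and it was called where it also changed at least 1.5-fold. Of the 50 members, 47 passed the filter on low counts. Oocyte markers summed to 15836 to 20691 CPM per pool, whereas the hemoglobin genes Hbb-bs and Hba-a1 were at 0 in all 12 pools. The 8 blood and vessel markers, these 2 included, summed to 57.0 to 71.3 CPM, of which Pecam1 held 52.0 to 64.6 CPM, and 1 of the 3 tested (Kdr) was called higher in PND 40 vs. PND 13 (log2 fold change 1.32) and in competent oocytes (0.92). The 10 theca and stroma markers summed to 12.5 to 48.2 CPM, and of the 8 tested Ptch1 was called lower in PND 16 large vs. small (-1.23), in PND 40 vs. PND 13 (-2.92) and in competent oocytes (-2.05), and Cyp11a1 higher in PND 40 vs. PND 13 (0.96) and vs. PND 16 large (1.40). The part of such cells in the results was not tested. The 15 granulosa and cumulus cell markers were all detected well enough to be tested, and they summed to 752, 402 and 868 CPM in PND 13 replicates 1 to 3 and to 447, 930 and 519 CPM in PND 16 small. They summed to 499.8 to 545 CPM in PND 16 large and 415 to 464 CPM at PND 40. Thus PND 13 replicates 1 and 3 and PND 16 small replicate 2 stood highest in these sums, and member results are also given without those 3 pools. In PND 40 vs. PND 13, 3 of the 15 markers were called lower and 0 higher, beside 12.6% and 6.31% of all genes. Competent oocytes also had 3 called lower and 0 higher, beside 11.2% and 3.78%. The median log2 fold changes of the 15 were -2.09 and -1.58, beside 0.0044 and -0.0046 for all genes. The part of granulosa cell RNA in the results was not tested.

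The initiation factors changed little across the cohorts as a group, with a few exceptions. Among the 43 members with a mean of at least 10 CPM, the highest cohort mean exceeded the lowest by a median of 1.23-fold, and 39 (90.7%) spanned less than 1.5-fold. Among all 7859 genes at that level, the median span was 1.34-fold, and 5545 (70.6%) stayed under 1.5-fold. Above the cut, the members and all genes were not matched for level. The tested members below it spanned 3.30-fold (Eif1a), 1.81-fold (Eif5a2), 1.48-fold (Eif2ak2) and 1.18-fold (Eif2s3x). Summed over the members, CPM was 5194 to 5359 at PND 13, 5573 to 5597 in PND 16 small, 5535 to 5796 in PND 16 large and 5342 to 5520 at PND 40. The step from PND 13 to PND 16 small was not seen in unscaled shares of the total counts. These were 0.540%, 0.554% and 0.556% at PND 13 and 0.555%, 0.551% and 0.532% in PND 16 small.

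In PND 16 small vs. PND 13, no member was called in either direction, beside 0.179% of all genes tested called higher and 0.194% called lower. By edgeR, 9 of the 47 members had an unadjusted p under 0.05, beside 2684 of all 13943 genes tested, and DESeq2 also called none. The median log2 fold change of the members was 0.07, beside -0.03 over all genes tested. One setting changed this count: without PND 16 small replicate 1, Eif2b5 was called.

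In PND 16 large vs. PND 16 small, no member was called higher and 1 (Eif1a) was called lower, beside 1.43% and 4.76% of all genes. By the adjusted p alone, 5 members rose (Eif1b, Eif2b1, Eif4a2, Eif5a and Eif6) and 2 fell (Eif1a and Eif4g1), beside 4.98% and 7.32% of all genes. The members' median log2 fold change was 0.11, beside -0.02 for all genes. The rise of Eif4a2 lost significance in 1 of 6 fits that left out a pool (without PND 16 large replicate 1, edgeR adjusted p = 0.053), and each of the others in 2 to 5 of 6 (edgeR adjusted p up to 0.126).

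In PND 40 vs. PND 16 large, the 2 competent cohorts, no member was called, beside 2.34% of genes called higher and 1.32% called lower. By edgeR, 7 of the 47 members had an unadjusted p under 0.05, beside 3123 of all 13943 genes tested, and DESeq2 also called none. None rose by the adjusted p alone (3.59% of all genes), and 3 fell (3.24% of all genes), Eif3b, Eif3c and Eif4g1. These 3 changes lost significance in 6, 6 and 5 of the 6 fits that left out a pool of these cohorts, with edgeR adjusted p reaching 0.107, 0.148 and 0.120.

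In PND 40 vs. PND 13, the widest step in age, 1 member was called higher (Eif4a2) and 1 lower (Eif1a), beside 6.31% and 12.6% of all genes. By the adjusted p alone, 10 of 47 members rose (Eif1b, Eif2b4, Eif2s2, Eif4a2, Eif4a3, Eif4b, Eif4e, Eif4e3, Eif5b and Eif6) and 8 fell (Eif1a, Eif2b5, Eif3b, Eif3c, Eif3l, Eif4g1, Eif4g2 and Eif4h), beside 16.3% and 16.7%. Of these 18, the changes of Eif1a, Eif1b, Eif2b5, Eif2s2, Eif4a2, Eif4b, Eif4e, Eif4e3 and Eif4g1 held in all 6 fits that left out a pool, and the others were lost in 2 to 6 of 6. Without the 3 granulosa-rich pools, 6 of the 18 held (Eif1a, Eif1b, Eif2s2, Eif4a2, Eif4e3 and Eif4g1), in a fit with 1 PND 13 pool, which is assumed to vary like the other cohorts. The members' median log2 fold change was 0.09, beside 0.0044 for all genes. In competent vs. non-competent oocytes, 6 pools against 6, Eif4a2 was called higher and Eif1a and Eif2ak3 lower, beside 3.78% and 11.2% of all genes. Here 12 members rose (Eif1b, Eif2b1, Eif2b4, Eif2s2, Eif3i, Eif4a2, Eif4a3, Eif4b, Eif4e, Eif4e3, Eif5a and Eif6) and 4 fell (Eif1a, Eif2ak3, Eif4g1 and Eif4g2) by the adjusted p alone, beside 14.2% and 16.5%, with a median of 0.13 for the members and -0.0046 for all genes. Those of Eif3i, Eif4b and Eif4g2 were lost in 9, 10 and 4 of 12 fits that left out a pool, and the others held in all 12. Without the 3 granulosa-rich pools 9 of the 16 held. These comparisons share pools with each other and are not independent. Where pools of different groups are described below as not overlapping, the share of all genes that separate in this way is not given.

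**Figure D1:**
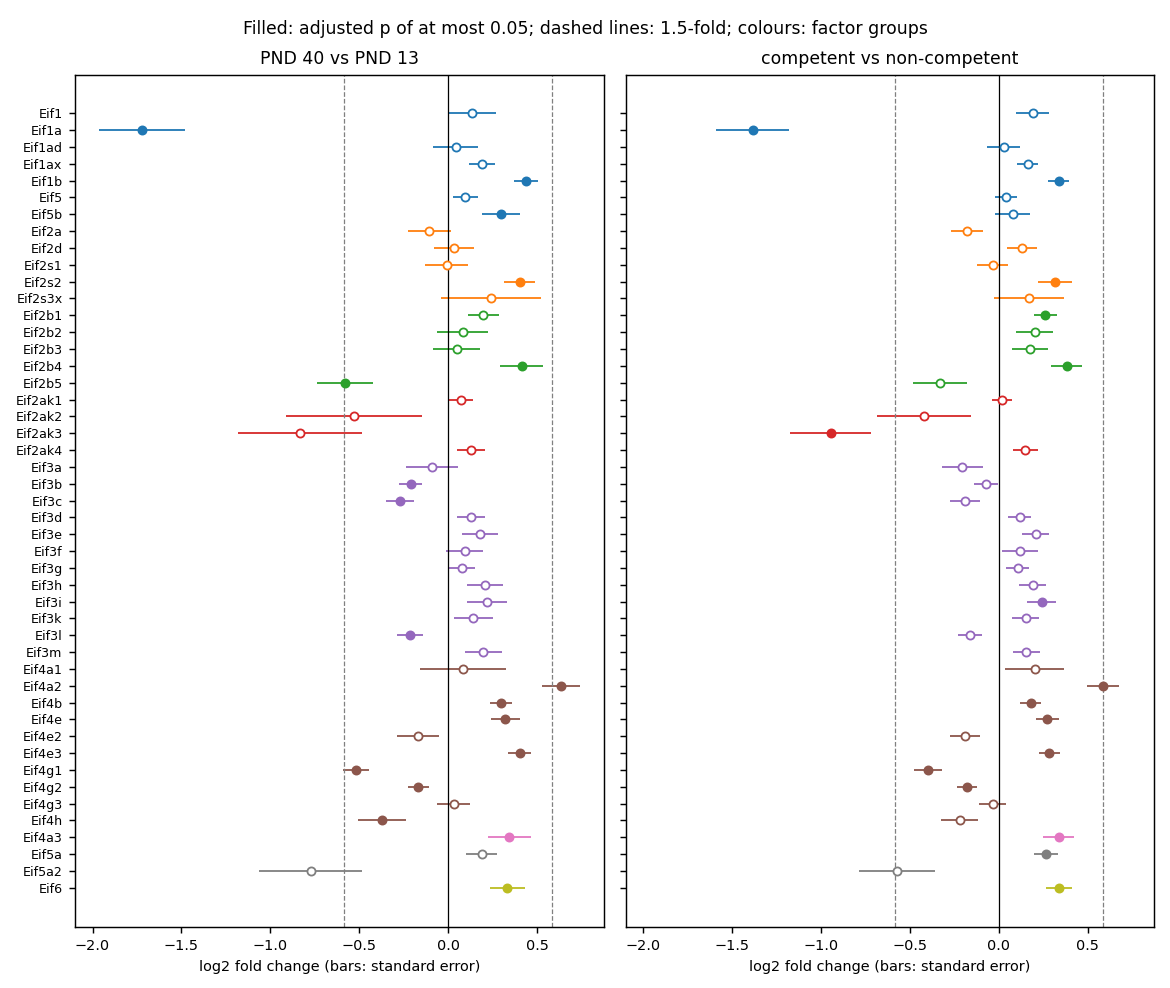
Log2 fold change (x axis, bars: standard error) of the 47 tested members (rows, coloured by factor group) in PND 40 vs. PND 13 and in competent vs. non-competent oocytes. Filled points have an adjusted p of at most 0.05 and dashed lines mark 1.5-fold; Eif1a lies farthest to the left, at -1.72 and -1.38, and most other members lie between the dashed lines.

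The factors of start codon selection and subunit joining are Eif1, Eif1b, Eif1a, Eif1ax, Eif5 and Eif5b. Eif1ad, described only as containing an eIF1A domain, is grouped with them here by its name. Eif1a encodes eIF1A, which promotes scanning of the small subunit along the mRNA, and Eif1ax is its X-linked paralog. Eif1a measured 13.0, 13.2 and 14.9 CPM in the PND 13 pools and 10.3, 8.96 and 7.41 CPM in PND 16 small. It measured 3.15, 4.74 and 5.65 CPM in PND 16 large and 3.30, 5.10 and 4.08 CPM at PND 40. All 6 non-competent pools therefore lay above all 6 competent pools, and the 2 competent cohorts overlapped. The level fell to 0.303 of that at PND 13 by PND 40 (log2 fold change -1.72, SE 0.24, edgeR adjusted p = 0.000207). It fell to 0.383 in competent vs. non-competent oocytes (log2 fold change -1.38, SE 0.20, edgeR adjusted p = 0.000262), and both calls held in every fit that left out a pool and without the 3 pools rich in granulosa markers. The fall from PND 16 small to PND 16 large (log2 fold change -0.98, SE 0.24, edgeR adjusted p = 0.020) was less secure. Without PND 16 large replicate 1 the edgeR adjusted p was 0.098, and without PND 16 large replicate 2 it was 0.061. The counts behind Eif1a were 77 to 364 per pool, and 2.62% of its 50-base exon stretches also occur in other genes.

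Eif1ax did not follow Eif1a. It measured 150.4 ± 8.93 CPM at PND 13, 163 ± 6.11 in PND 16 small, 179 ± 3.54 in PND 16 large and 171 ± 13.2 at PND 40, and the difference between PND 40 and PND 13 was 0.19 on the log2 scale (SE 0.07, edgeR adjusted p = 0.060). The ratio of Eif1a to Eif1ax, per kb of exon, was 0.114 ± 0.0101 at PND 13, 0.0678 ± 0.0105 in PND 16 small, 0.0313 ± 0.00903 in PND 16 large and 0.0303 ± 0.00702 at PND 40. Eif1ax was thus the more abundant transcript of the pair in every pool. Eif1a (gene ID 13664) lies on chromosome 18 at 46597701 to 46616456 and Eif1ax (gene ID 66235) on chromosome X at 159372178 to 159389928, both on the plus strand of GRCm38.

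Eif1b, a paralog of the start codon fidelity factor Eif1, had the highest level of all members, 137 CPM per kb. It measured 114, 129.9 and 126 CPM at PND 13, 133, 124 and 125 CPM in PND 16 small, 145, 153 and 150.2 CPM in PND 16 large, and 171, 167 and 162 CPM at PND 40. The cohorts PND 13 and PND 16 small overlapped, and both competent cohorts lay above them. Eif1b rose in PND 40 vs. PND 13 (log2 fold change 0.44, SE 0.07, edgeR adjusted p = 0.000403), also without the 3 granulosa-rich pools (edgeR adjusted p = 0.024). Eif5, the GTPase activator of eIF2, was second in the group at 83.2 CPM per kb. It measured 320.5, 319 and 336 CPM at PND 13, 344, 375 and 381 CPM in PND 16 small, 383, 332 and 374 CPM in PND 16 large, and 343, 341 and 359 CPM at PND 40, and no comparison passed the test. Eif5b, which joins the ribosomal subunits, rose in PND 40 vs. PND 13 by 0.30 on the log2 scale (edgeR adjusted p = 0.045), a change that lost significance in each of 6 fits that left out a pool (edgeR adjusted p up to 0.117). Of its exon stretches, 18.2% are shared with the overlapping gene Rev1. Eif1 and Eif1ad changed by at most 0.25 on the log2 scale in the 5 comparisons and passed no test.

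**Figure D2:**
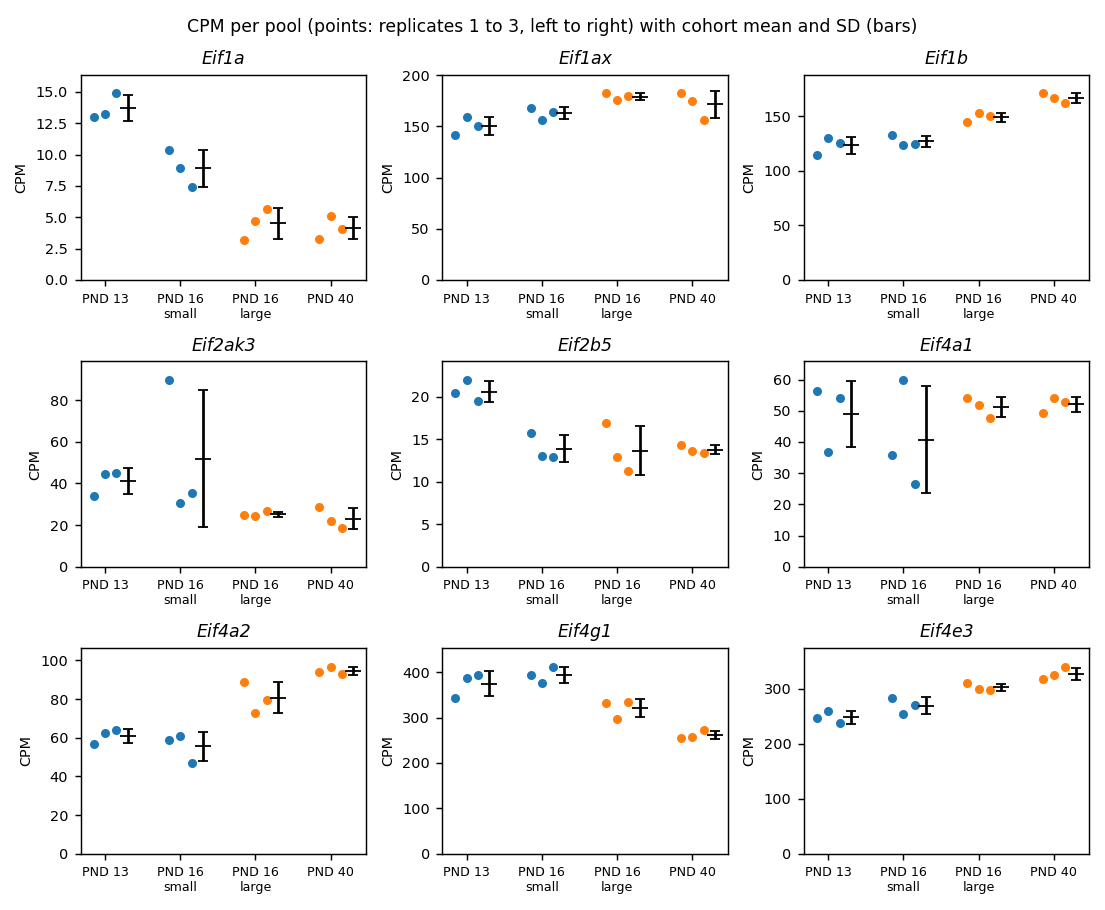
CPM (y axis, starting at 0) of 9 members in each of 12 pools, by cohort (x axis); points are replicates 1 to 3 from left to right, blue for non-competent and orange for competent cohorts, and bars give the cohort mean and SD. Eif1a, Eif2ak3 and Eif4g1 are lower and Eif1b, Eif4a2 and Eif4e3 higher in all 6 orange points than in all 6 blue points, whereas Eif2b5 is high in PND 13 alone and Eif4a1 varies between replicates of the blue cohorts. The share of all genes that separate in this way is not given.

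The eIF2 complex has the alpha, beta and gamma subunits Eif2s1, Eif2s2 and Eif2s3x, with Eif2s3y as a Y-linked gamma copy, and is described here with Eif2a and Eif2d, other proteins that bind initiator tRNA. Eif2s2 was highest of the group, at 37.0 CPM per kb. It measured 77.7, 72.4 and 72.1 CPM at PND 13, 83.9, 101 and 95.9 CPM in PND 16 small, 120.1, 107 and 105 CPM in PND 16 large, and 103, 96.5 and 93.8 CPM at PND 40, so that every pool of the other cohorts lay above PND 13. It rose in PND 40 vs. PND 13 (log2 fold change 0.40, SE 0.09, edgeR adjusted p = 0.0034), although 21.9% of its exon stretches are shared with Gm9892. Eif2d followed at 13.9 CPM per kb, with 48.1, 65.8 and 53.1 CPM at PND 13, 56.4, 47.9 and 58.1 CPM in PND 16 small, 62.8, 64.8 and 62.4 CPM in PND 16 large and 56.2, 57.6 and 56.9 CPM at PND 40, cohorts that mostly overlapped.

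Eif2s1 was even across cohorts, from 36.5 ± 3.98 CPM at PND 40 to 38.9 ± 5.13 CPM in PND 16 small. Eif2s3x was listed far below its partner subunits, at 1.09 CPM per kb against 11.0 for Eif2s1. Of its stretches, 35.4% are shared with Gm2223, so its level is uncertain if reads with several matches were dropped. Eif2s3y had 0 to 3 counts per pool, no more than the floor of 3 counts, and was not tested. Eif2a changed by at most 0.25 on the log2 scale and passed no test.

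Of the 5 subunits of eIF2B, Eif2b1 was the highest per kb (77.9) and Eif2b5, the catalytic epsilon subunit, the lowest (6.06), a 12.8-fold range. Eif2b5 measured 20.4, 22.0 and 19.4 CPM at PND 13, 15.7, 13.0 and 12.9 CPM in PND 16 small, 16.9, 12.9 and 11.3 CPM in PND 16 large, and 14.3, 13.6 and 13.4 CPM at PND 40. PND 13 lay above all other pools, and the other 3 cohorts overlapped. Eif2b5 fell in PND 40 vs. PND 13 (log2 fold change -0.58, SE 0.16, edgeR adjusted p = 0.012), just short of 1.5-fold, so that it was called under DESeq2 and other scalings. Without the 3 granulosa-rich pools the log2 fold change was -0.67 with an edgeR adjusted p of 0.075.

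The other eIF2B subunits did not share the direction of Eif2b5. Eif2b1, the alpha subunit, measured 136, 166 and 138 CPM at PND 13, 144, 145 and 126 CPM in PND 16 small, 176, 165 and 180.3 CPM in PND 16 large, and 179, 165 and 161 CPM at PND 40. It rose in PND 16 large vs. small (log2 fold change 0.33, edgeR adjusted p = 0.029) and in competent vs. non-competent oocytes (0.26, edgeR adjusted p = 0.0082), where PND 13 replicate 2 overlapped the competent pools. The first of these lost significance in 4 of 6 fits that left out a pool (edgeR adjusted p up to 0.109), and the second without the 3 granulosa-rich pools (edgeR adjusted p = 0.082). Eif2b4, the delta subunit, measured 66.9, 85.1 and 60.5 CPM at PND 13, 78.8, 74.6 and 61.1 CPM in PND 16 small, 87.1, 97.3 and 89.3 CPM in PND 16 large, and 97.4, 93.6 and 91.8 CPM at PND 40. All competent pools lay above all non-competent pools, with a rise of 0.38 on the log2 scale (SE 0.09, edgeR adjusted p = 0.0042). Without the 3 granulosa-rich pools that edgeR adjusted p was 0.055. Eif2b2 and Eif2b3 were higher by 0.20 and 0.18 in the same comparison, with edgeR adjusted p of 0.16 and 0.20.

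The 4 kinases of eIF2 alpha respond to different stresses: Eif2ak1 to heme shortage, Eif2ak2 to double-stranded RNA, Eif2ak3 (PERK) to unfolded protein in the endoplasmic reticulum and Eif2ak4 (GCN2) to amino acid shortage. Eif2ak1 was the highest, at 45.5 CPM per kb. It measured 189, 188 and 186 CPM at PND 13, 208, 194 and 209.6 CPM in PND 16 small, 202, 186 and 209 CPM in PND 16 large, and 212, 186 and 192 CPM at PND 40. Eif2ak4 followed at 20.8 CPM per kb, with 138, 150.3 and 124 CPM at PND 13, 153, 139 and 155 CPM in PND 16 small, 165, 168 and 171 CPM in PND 16 large, and 143, 149 and 158 CPM at PND 40. Neither passed a test in any comparison, and Eif2ak2 was near the lower end of detection at 1.46 to 5.22 CPM.

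Eif2ak3 fell in competent oocytes. It measured 34.0, 44.6 and 44.9 CPM at PND 13, 89.6, 30.8 and 35.5 CPM in PND 16 small, 24.8, 24.5 and 26.6 CPM in PND 16 large, and 28.7, 21.8 and 18.7 CPM at PND 40. The 6 non-competent pools lay above the 6 competent pools, with PND 16 small replicate 1 far above the rest. The fall in competent vs. non-competent oocytes was to 0.520 of the level (log2 fold change -0.94, SE 0.23, edgeR adjusted p = 0.0070). Without PND 16 small replicate 1 it was -0.65 (edgeR adjusted p = 0.0030), and without the 3 granulosa-rich pools -1.22 (edgeR adjusted p = 0.0059). The pairwise comparisons did not reach the threshold, at -1.04 for PND 16 large vs. small (SE 0.35, edgeR adjusted p = 0.077) and -0.84 for PND 40 vs. PND 13 (SE 0.35, edgeR adjusted p = 0.090).

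Among the factor groups with more than 1 gene, eIF3 was the most even in level over the tested members, which leave out Eif3j1 and Eif3j2. Its 12 tested subunits, Eif3a, Eif3b, Eif3c, Eif3d, Eif3e, Eif3f, Eif3g, Eif3h, Eif3i, Eif3k, Eif3l and Eif3m, ranged from 12.5 CPM per kb (Eif3f) to 62.8 (Eif3g), a 5.03-fold range. Eif3g, an RNA-binding subunit, measured 63.8, 66.5 and 63.4 CPM at PND 13, 66.3, 66.6 and 73.4 CPM in PND 16 small, 77.7, 75.8 and 72.5 CPM in PND 16 large, and 69.2, 68.7 and 66.4 CPM at PND 40. Eif3c, a core subunit that contacts eIF1 and eIF5, was second at 53.1 CPM per kb, with 187, 175 and 182 CPM at PND 13, 179, 206 and 219 CPM in PND 16 small, 188, 180.0 and 188 CPM in PND 16 large, and 147, 161 and 142 CPM at PND 40. The PND 40 pools of Eif3c lay below all other pools.

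No eIF3 subunit was called in any comparison, and the log2 fold changes in PND 40 vs. PND 13 lay between -0.27 and 0.22. In that comparison 3 subunits fell: Eif3b by 0.21, Eif3c by 0.27 and Eif3l by 0.22 on the log2 scale (edgeR adjusted p = 0.020, 0.018 and 0.040). These lost significance in 4, 4 and 5 of 6 fits that left out a pool (edgeR adjusted p up to 0.087, 0.082 and 0.151) and without the 3 granulosa-rich pools (0.21, 0.25 and 0.42). Eif3i rose by 0.24 in competent oocytes (edgeR adjusted p = 0.040), which was lost in 9 of 12 fits that left out a pool (edgeR adjusted p up to 0.092). Eif3j1 and Eif3j2 were listed at 0 in all 12 pools. Of the 50-base stretches of Eif3j2, 90.8% also occur in Eif3j1, but 54.8% of those of Eif3j1 occur in other genes, and why Eif3j1 was listed at 0 was not tested.

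**Figure D3:**
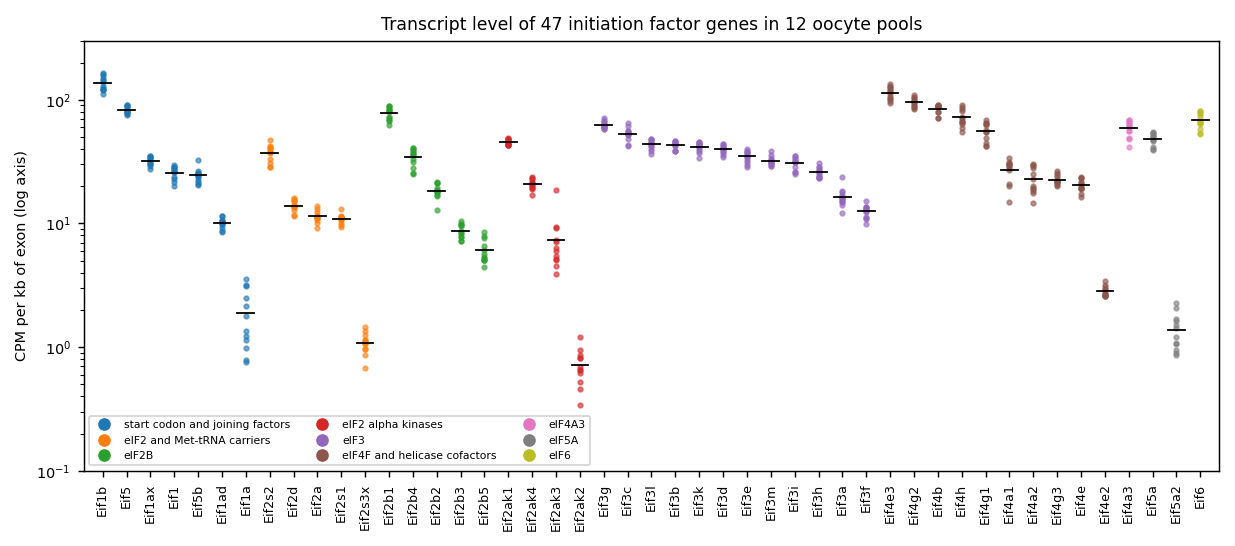
CPM per kb of exon (y axis, log scale) of the 47 tested members, sorted within factor groups (colours); points are the 12 pools and black bars the means. Levels within eIF3 stay within 5.03-fold, whereas Eif1a, Eif2s3x, Eif2ak2, Eif4e2 and Eif5a2 lie far below the other members of their groups.

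In the eIF4F complex and its cofactors, the cap-binding proteins are Eif4e, Eif4e2 and Eif4e3, the scaffolds Eif4g1, Eif4g2 and Eif4g3, the helicases Eif4a1 and Eif4a2, and the helicase cofactors Eif4b and Eif4h. Of these 10, by the adjusted p alone, 4 rose and 3 fell in PND 40 vs. PND 13, beside 16.3% and 16.7% of all genes, and 4 rose and 2 fell in competent oocytes, beside 14.2% and 16.5%.

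Eif4a2 was the member with the largest rise. It measured 56.7, 62.3 and 63.8 CPM at PND 13, 58.7, 61.1 and 47.0 CPM in PND 16 small, 89.0, 73.0 and 79.7 CPM in PND 16 large, and 94.1, 96.6 and 92.9 CPM at PND 40. The non-competent cohorts overlapped, PND 16 large lay above both, and PND 40 lay above all other pools. In PND 40 vs. PND 13 it rose 1.55-fold (log2 fold change 0.63, SE 0.11, edgeR adjusted p = 0.000671), also without the 3 granulosa-rich pools (0.60, edgeR adjusted p = 0.023). In competent oocytes it rose by 0.59 on the log2 scale (SE 0.09, edgeR adjusted p = 0.000330), which sits on the 1.5-fold line. There the adjusted p held in each fit that left out a pool (up to 0.00127 by edgeR), but the fold change slipped below the line in 6 of 12, those without PND 13 replicate 1, PND 16 small replicate 3, PND 16 large replicate 1 or any PND 40 replicate, with a lowest log2 fold change of 0.52. It also slipped below in 5 of 6 other settings (DESeq2, RLE factors, total counts alone, no filter on low counts and cohort means in the model of 4 cohorts), at log2 fold changes of 0.55 to 0.58.

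Eif4a1, the other eIF4A helicase, passed no test (0.08 in PND 40 vs. PND 13, SE 0.24, edgeR adjusted p = 0.82). It measured 56.2, 36.9 and 54.1 CPM at PND 13, 35.7, 59.8 and 26.6 CPM in PND 16 small, 54.1, 51.8 and 47.7 CPM in PND 16 large, and 49.4, 54.0 and 52.7 CPM at PND 40. Among the non-competent pools, its 3 highest values stood in the 3 pools with the highest granulosa markers. Leaving out those pools removed these same 3 values, and in that fit Eif4a1 was called higher in PND 16 large vs. small and in competent oocytes. The part of granulosa cell RNA in this was not tested. Of its exon stretches, 65.3% also occur in other genes, nearly all in the pseudogene Eif4a-ps4, so its level is uncertain. The ratio of Eif4a2 to Eif4a1 per kb was 0.717 ± 0.196 at PND 13, 0.821 ± 0.223 in PND 16 small, 0.874 ± 0.0794 in PND 16 large and 1.01 ± 0.0420 at PND 40.

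Eif4g1, the main eIF4G scaffold, went the other way from Eif4a2. It measured 343, 387 and 394 CPM at PND 13, 393, 377 and 412 CPM in PND 16 small, 333, 298 and 333 CPM in PND 16 large, and 256, 257 and 272 CPM at PND 40. The cohorts separated into non-competent, PND 16 large and PND 40, with no overlap between these 3 steps. Eif4g1 fell to 0.698 of its PND 13 level by PND 40 (log2 fold change -0.52, SE 0.07, edgeR adjusted p = 0.000204), short of 1.5-fold, and it also fell in PND 16 large vs. small (-0.29, edgeR adjusted p = 0.021). From PND 16 large to PND 40 it fell by 0.30 (edgeR adjusted p = 0.028). The change from PND 13 to PND 40 held in every fit that left out a pool and without the 3 granulosa-rich pools (-0.56, edgeR adjusted p = 0.0034). The PND 16 large vs. small change lost significance in 3 of 6 such fits, those without PND 16 small replicate 3, PND 16 large replicate 1 or PND 16 large replicate 2 (edgeR adjusted p up to 0.101).

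The paralog Eif4g3 passed no test, with 217 ± 13.1 CPM in the PND 13 cohort and 222 ± 17.1 CPM in the PND 40 cohort (0.03, SE 0.09, edgeR adjusted p = 0.84). The ratio of Eif4g3 to Eif4g1 per kb was 0.348 ± 0.0407 at PND 13 and 0.507 ± 0.0457 at PND 40. Eif4g2 (DAP5), a scaffold that lacks the eIF4E-binding part, was the second highest of the group at 95.7 CPM per kb. It measured 796, 751 and 781 CPM at PND 13, 833, 875 and 839.8 CPM in PND 16 small, 775, 709 and 752 CPM in PND 16 large, and 676, 710.0 and 687 CPM at PND 40. It fell by 0.17 in PND 40 vs. PND 13 (edgeR adjusted p = 0.044, lost in 5 of 6 fits that left out a pool, up to 0.152).

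Of the cap-binding proteins, Eif4e3 and Eif4e rose. Eif4e3, the highest of the group at 114 CPM per kb, measured 247, 259 and 237 CPM at PND 13, 284, 253 and 271 CPM in PND 16 small, 311, 299.9 and 298 CPM in PND 16 large, and 318, 324 and 339.9 CPM at PND 40. All competent pools lay above all non-competent pools, and Eif4e3 rose in PND 40 vs. PND 13 (0.40, SE 0.06, edgeR adjusted p = 0.000472), also without the 3 granulosa-rich pools (edgeR adjusted p = 0.023). Eif4e, the canonical cap-binding protein, went from 90.6 ± 7.63 CPM at PND 13 to 113 ± 4.98 CPM at PND 40 (0.32, SE 0.08, edgeR adjusted p = 0.0084). Without the granulosa-rich pools the latter was 0.20 with an edgeR adjusted p of 0.27. Eif4e2, the 4EHP protein that binds caps without eIF4G, was low at 2.83 CPM per kb and passed no test. The excluded Eif4e1b stood at 382 CPM per kb, and the ratio of Eif4e1b to Eif4e per kb was 21.4 ± 1.18 at PND 13 and 17.8 ± 0.0699 at PND 40.

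The helicase cofactors split. Eif4b rose from 304 ± 17.8 CPM at PND 13 to 373 ± 4.19 CPM at PND 40 (0.30, SE 0.06, edgeR adjusted p = 0.0030), whereas without the granulosa-rich pools the edgeR adjusted p was 0.13. Eif4h fell from 232 ± 13.1 to 179.5 ± 19.0 CPM (-0.37, SE 0.13, edgeR adjusted p = 0.049), which was lost in each of 6 fits that left out a pool (up to 0.179). Eif4a3, a relative of eIF4A that acts in the exon junction complex and not in cap-dependent initiation, measured 72.1, 84.0 and 73.8 CPM at PND 13, 83.7, 92.7 and 63.0 CPM in PND 16 small, 97.7, 100.3 and 103 CPM in PND 16 large, and 104, 96.8 and 90.4 CPM at PND 40. PND 16 small replicate 2 reached the competent range. Eif4a3 rose in competent oocytes (0.34, SE 0.09, edgeR adjusted p = 0.0086), also without the 3 pools (edgeR adjusted p = 0.027).

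Eif5a and Eif5a2 encode eIF5A, which carries the hypusine modification and keeps ribosomes moving through difficult stretches. Eif5a measured 99.1, 113 and 110.3 CPM at PND 13, 94.2, 115 and 93.1 CPM in PND 16 small, 128, 132 and 123 CPM in PND 16 large, and 127, 118 and 122 CPM at PND 40, so that competent pools lay above non-competent pools (0.26, SE 0.07, edgeR adjusted p = 0.0082). Eif5a2, at 1.39 CPM per kb against 48.2 for Eif5a, measured 5.40, 10.4 and 8.51 CPM at PND 13, 11.4, 8.20 and 6.11 CPM in PND 16 small, 7.57, 4.77 and 7.13 CPM in PND 16 large, and 5.32, 4.54 and 4.37 CPM at PND 40. All PND 40 pools lay below all PND 13 and PND 16 small pools, but the difference from PND 13 did not pass the test (-0.77, SE 0.29, edgeR adjusted p = 0.053), although it was called by DESeq2 and in 3 other settings given in the closing section. In competent vs. non-competent oocytes the pools overlapped, and Eif5a2 did not pass the test (-0.57, SE 0.21, edgeR adjusted p = 0.055). Eif6, which keeps the large ribosomal subunit from joining prematurely, measured 143, 156 and 131 CPM at PND 13, 160.2, 165 and 133 CPM in PND 16 small, 193, 199.5 and 188 CPM in PND 16 large, and 199.8, 178 and 164 CPM at PND 40. It rose in competent oocytes (0.34, SE 0.07, edgeR adjusted p = 0.0035), although PND 40 replicate 3 fell within the non-competent range.

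**Figure D4:**
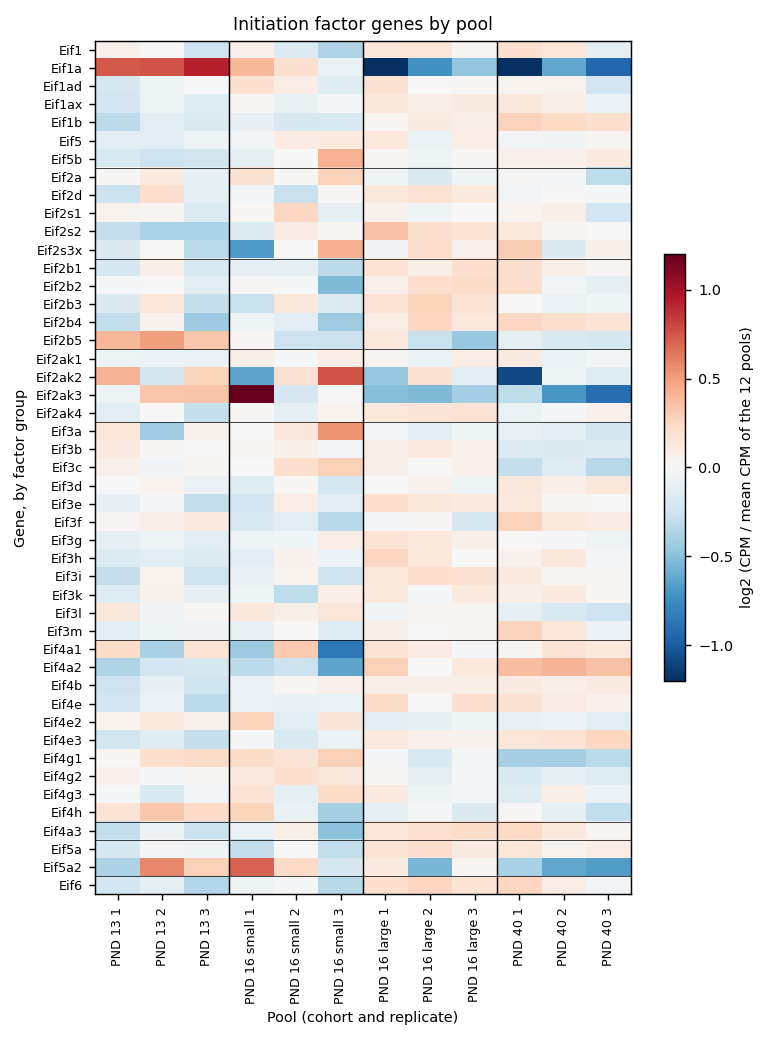
Log2 of CPM relative to the mean of the 12 pools (colour, limited to ± 1.2) for 47 members (rows, by factor group) in each pool (columns, by cohort). Eif1a changes colour between the non-competent and competent cohorts, Eif2ak3 is darkest in PND 16 small replicate 1 (89.6 CPM), and most other rows are pale.

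The promoter windows of 3 members were printed for their sequence context, Eif4a2 for its rise and Eif2ak3 and Eif4g1 for their fall; these 3 were chosen after their values were seen. RefSeq windows of GRCm38.p6 run from 250 bases before to 50 bases after a transcript start, and 51 windows matched 41 of the 50 members. The searched letters, on both strands, were the E-box CACGTG, the ETS motif CCGGAAG, the GC box GGGCGG, the short CRE motif TGACGT, the CCAAT box and the TATA box TATAAA, and capitals mark every match. The Eif4a2 window (chr16:23107218-23107517, plus strand) holds GC boxes, that of Eif2ak3 (chr6:70844265-70844564, plus strand) holds CCAAT boxes, and that of Eif4g1 (chr16:20672477-20672776, plus strand, inside the gene) holds E-boxes and GC boxes.
Eif4a2: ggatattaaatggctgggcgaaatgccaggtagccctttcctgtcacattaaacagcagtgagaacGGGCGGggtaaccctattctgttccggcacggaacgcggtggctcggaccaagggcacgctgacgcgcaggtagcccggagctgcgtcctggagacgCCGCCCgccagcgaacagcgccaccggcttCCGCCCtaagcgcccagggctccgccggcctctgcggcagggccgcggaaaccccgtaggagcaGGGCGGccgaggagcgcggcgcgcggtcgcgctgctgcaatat
Eif2ak3: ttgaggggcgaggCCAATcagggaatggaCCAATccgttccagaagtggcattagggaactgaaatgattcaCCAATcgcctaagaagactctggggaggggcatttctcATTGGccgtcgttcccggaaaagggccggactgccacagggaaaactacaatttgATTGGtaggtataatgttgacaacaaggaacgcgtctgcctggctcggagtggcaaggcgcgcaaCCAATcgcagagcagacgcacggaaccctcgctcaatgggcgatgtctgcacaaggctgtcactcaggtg
Eif4g1: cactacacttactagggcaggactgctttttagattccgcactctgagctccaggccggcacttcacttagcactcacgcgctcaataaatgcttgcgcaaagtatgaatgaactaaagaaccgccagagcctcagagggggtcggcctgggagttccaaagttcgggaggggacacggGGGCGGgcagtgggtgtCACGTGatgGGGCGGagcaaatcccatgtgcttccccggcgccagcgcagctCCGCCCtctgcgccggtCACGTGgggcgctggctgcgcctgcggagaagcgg

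Over the 51 member windows, 23.5% held the E-box, beside 7.15% of all 32851 windows. The E-box stood in windows of 10 member genes, namely Eif1b, Eif3a, Eif3f, Eif3k, Eif4a1, Eif4e, Eif4g1, Eif4h, Eif5a and Eif5a2. The ETS motif stood in 31.4% of member windows and 8.86% of all windows, and the GC box in 68.6% and 35.7%. The short CRE motif stood in 19.6% and 7.51%, the CCAAT box in 27.5% and 37.4%, and the TATA box in 7.84% and 13.6%. Several windows can belong to 1 gene, and a match of letters is not evidence of binding. The member windows and all windows were not matched for expression or base content, so these shares are not shown to be particular to the members.

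Of 9 regulators of the cap-binding step, a hand-compiled list, 4 were called lower and none higher in PND 40 vs. PND 13, beside 12.6% and 6.31% of all genes (median log2 fold change -0.74, beside 0.0044 for all genes). Eif4ebp2, which sequesters eIF4E, measured 30.8, 26.5 and 34.0 CPM at PND 13 and 18.0, 17.3 and 13.4 CPM at PND 40 (-0.90, SE 0.16, edgeR adjusted p = 0.000954). Larp1, a repressor of mRNAs with a 5′ terminal oligopyrimidine tract, went from 52.9 ± 5.06 to 28.8 ± 4.58 CPM (-0.88, SE 0.13, edgeR adjusted p = 0.000254), and the eIF4E kinase Mknk2 from 43.0 ± 4.57 to 25.1 ± 3.49 CPM (-0.77, SE 0.15, edgeR adjusted p = 0.0017). The fourth was the eIF4A inhibitor Pdcd4 (-0.74, SE 0.11, edgeR adjusted p = 0.000248). For these and the related genes below, results without the granulosa-rich pools or with a pool left out are not given. At PND 13, Eif4ebp2, Larp1 (52.3, 48.2 and 58.3 CPM) and Pdcd4 (89.7, 74.1 and 87.4 CPM) were lowest in replicate 2, the pool not rich in granulosa markers. Mknk2 was highest there (38.7, 47.8 and 42.5 CPM). The paralogous kinase Mknk1 rose by 0.55 on the log2 scale (edgeR adjusted p = 0.000448). Eif4e1b and Eif4enif1 differed by 0.06 and 0.13 in the same comparison and passed no test. Eif4ebp3 and Eif4ebp1 were at -0.32 and -1.30 with edgeR adjusted p of 0.42 and 0.075.

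Among 12 regulators of eIF2 and recycling factors, 3 were called lower and none higher in PND 40 vs. PND 13, beside 12.6% and 6.31% of all genes: Impact, an inhibitor of GCN2 activation (-1.38, SE 0.20, edgeR adjusted p = 0.000251), the eIF5 mimic Bzw1 (-0.83, SE 0.10, edgeR adjusted p = 6.06e-05) and the ribosome recycling factor Abce1 (-0.74, SE 0.13, edgeR adjusted p = 0.000858). Ppp1r15a, a subunit of the eIF2 alpha phosphatase, rose by 0.54 (edgeR adjusted p = 0.0014). Of 6 poly(A)-binding proteins and partners, Pabpc1 alone was called (lower, beside the same 12.6%), from 71.5 ± 7.80 CPM at PND 13 to 38.1 ± 3.83 CPM at PND 40 (-0.91, SE 0.12, edgeR adjusted p = 0.000115), whereas the oocyte form Pabpc1l differed by 0.07 (edgeR adjusted p = 0.39). Of 10 transcripts known to respond to eIF2 phosphorylation, Chac1 was called lower in PND 40 vs. PND 13 (6.38 ± 0.0344 to 2.42 ± 0.468 CPM, -1.40, SE 0.28, edgeR adjusted p = 0.0021), again beside 12.6%. In PND 16 large vs. small, Chac1 was called lower (6.05 ± 2.01 to 2.83 ± 0.586 CPM, -1.10, SE 0.28, edgeR adjusted p = 0.022) and Ddit4 higher (0.65, SE 0.14, edgeR adjusted p = 0.0099), beside 4.76% and 1.43% of all genes. Atf4, the central factor of that response, differed by 0.20 in PND 40 vs. PND 13 (edgeR adjusted p = 0.25). No gene of the lists of 8 elongation, 5 termination and 9 mitochondrial translation factors was called in any comparison. By the adjusted p alone, 4 elongation factors rose and 1 fell in PND 40 vs. PND 13, beside 16.3% and 16.7% of all genes. In that comparison 1 termination and 2 mitochondrial translation factors rose, and none of these lists fell. In competent oocytes 4 elongation factors rose and 0 fell, beside 14.2% and 16.5%.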

How the data were processed

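RNA-Seq was analysed from 12 pools of oocytes, 3 in each of 4 cohorts, grouped by the cohort in the sample labels. Per the labels, strand-specific libraries were made from RNA depleted of rRNA; the authors sequenced 50-base reads and processed them on the Rosalind platform; the submitters' processing notes name FastQC, STAR, HTSeq, DESeq2, DESeq and HOMER and the build mm10, with no versions. The authors deposited raw counts per gene, which were used here, and a log2 table of normalized values, which was not used. The handling of reads with several matches and of strand is not given in the sources used here.

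Genes were filtered by filterByExpr (minimum count 10, by cohort), scaled by TMM (factors 0.955 to 1.07) and fitted with edgeR 4.0.16 in R 4.3.3 by robust quasi-likelihood, with 1 model of 4 cohorts for the pairwise comparisons and 1 of 2 groups for competent vs. non-competent oocytes. P-values are two-sided and Benjamini-Hochberg adjusted. Standard errors are approximate: the size of the log2 fold change over the root of the F statistic. The fit was tested on simulated data. Exon lengths and coordinates are those of GENCODE M21 (GRCm38), and shared stretches are 50-base exon sequences that occur, on either strand, in another gene. Promoters come from RefSeq. Protein sequences and promoters of 9 members were not used here.

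Values per pool are given for called members averaging 1 CPM or more and for the highest and second highest member of each factor group, and from each list of related genes the 3 called genes with the largest change are named; others named were chosen after their values were seen. The members and lists were chosen with earlier results of these data known. The pools are taken as separate samples, so p-values measure the spread between pools, which may in part be technical. The chi-square per gene between pools of a cohort was 9.24 to 50.2, and none were identical. Alternatives were DESeq2 1.42.0, RLE factors, total counts, no filter, fewer cohorts in the model, no fold criterion, a replicate block, leaving out each pool and, chosen after seeing the data, leaving out the 3 granulosa-rich pools.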

Additional observations from a re-analysis of the deposited data

Results flagged for a closer look

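Within the 6 non-competent or 6 competent pools, Dixon's test at the 95% level marked 5 of 94 groups of member values, near the 1 in 20 that chance gives. Eif2ak3 was at 89.6 CPM in PND 16 small replicate 1, with the nearest non-competent pool at 44.9 CPM. PND 16 small replicate 3, the pool with the lowest total count, was the outlying pool for 3 genes. These were Eif5b (255 CPM, nearest 190.2 CPM), Eif3g (73.4 CPM, nearest 66.6 CPM) and Eif2b2 (20.5 CPM, nearest 26.9 CPM). Eif1ax was lowest at 157 CPM in PND 40 replicate 3, with the nearest competent pool at 175 CPM.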

How the results depend on the processing

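The number of members called was 0 in PND 16 small vs. PND 13, 1 in PND 16 large vs. small, 0 in PND 40 vs. PND 16 large, 2 in PND 40 vs. PND 13 and 3 in competent vs. non-competent oocytes. Without the fold criterion the last 4 were 7, 3, 18 and 16. In PND 16 large vs. small, DESeq2 called 2 members, the model of the 2 cohorts alone 0, and the fit without the 3 granulosa-rich pools, chosen after seeing the data, 4 (Eif1a, Eif2ak3, Eif4a1 and Eif4a2). In PND 40 vs. PND 13, DESeq2, RLE factors and total counts each called 4 and the model of the 2 cohorts alone 5; Eif2b5 and Eif5a2 entered in each. With 1 pool left out at a time the counts were 0 to 1, 0 to 4, 0 to 0, 2 to 4 and 2 to 4 members. The lower fold of Eif4a2 with total counts ended its call, since that scaling sets all genes lower (median -0.07) in PND 40 vs. PND 13; in PND 16 small vs. PND 13 it moved the median of all genes to -0.12 and that of the members from 0.07 to -0.03. No member change that passed the adjusted p in the main fit reversed its direction under any alternative run. Directions of the other member changes were not followed across the alternatives. With the replicate block the counts were 0, 1, 0, 2 and 3. Deviations of pools with the same replicate number correlated between -0.44 and 0.075 across cohorts, so the numbers were not taken to pair the pools. Counting error is small for most members, whereas Eif1a, Eif2ak2, Eif2s3x and Eif5a2 rest on fewer counts.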
